A study of Mus musculus with 6 samples.

Results

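The genes described here are 33 genes of the sterol regulatory element-binding protein (SREBP) pathway and of the cholesterol and fatty acid synthesis that it controls, followed in neural progenitor cells (NPCs) with and without *Armc5*. They are the loci of the count table whose gene name holds 1 of the 33 symbols, out of 53060 genes or merged loci that name a gene. That rule uses no measured value. All 33 passed the filter on low counts, which 19073 genes passed. ARMC5 is the substrate-recognition subunit of a cullin 3 ubiquitin ligase. The SREBPs have been reported as substrates of it. The question put to these libraries is whether the mRNAs of the SREBP genes and of their targets differ when *Armc5* is lost.

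RNA-seq was done on 3 KO and 3 WT cultures. The NPCs, which the labels call neural stem cells, came from the ganglionic eminences of e13.5 mouse embryos and grew as neurospheres to their second passage, with epidermal growth factor at 20 ng/ml. The KO cultures came from mice with a whole-body deletion of *Armc5* (Armc5(-/-)) and the WT cultures from wild-type mice, and the strain label of all 6 is 129 sv X CD1. The sources used here do not say whether each culture came from its own embryo, so the p-values measure the spread between cultures only.

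SREBPs are made as membrane proteins of the endoplasmic reticulum. When sterols are scarce, SCAP escorts them to the Golgi apparatus, where proteases release the part that enters the nucleus and binds sterol regulatory elements in promoters, together with NF-Y and SP1. When sterols are plentiful, INSIG proteins hold SCAP back, and the genes of the mevalonate pathway, of sterol synthesis and of fatty acid synthesis are transcribed less. SREBP2, encoded by *Srebf2*, acts mostly on cholesterol genes, and SREBP1, encoded by *Srebf1*, mostly on fatty acid genes. Cells of the developing brain make their own cholesterol, and myelin-forming cells need large amounts of it. RNA-seq measures the mRNAs and says nothing of the amount or cleavage of the SREBP proteins.

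The libraries held between 52995791 and 85170379 counts at named loci, KO NPC 3 the fewest. *Armc5* was at 84, 119 and 43 counts in KO NPC 1, 2 and 3 and at 1966, 2114 and 1797 in WT NPC 1, 2 and 3, as labelled (log2 fold change -4.68 ± 0.36, SE, with an adjusted p = 0.0864 by the quasi-likelihood test of edgeR, which no other gene undercut). *Sox2*, *Nes* and *Pax6*, which mark neural progenitors, were detected in every library. Levels are given as CPM, a count scaled to a common library total. KO NPC 3 stood apart: the summed level of 10 progenitor genes was 2534 CPM there against 4256 to 4543 CPM in the others, and that of 8 astrocyte genes was 3499 CPM there against 1776 to 2377 CPM. The progenitor genes did not fall as a group: 5 of the 10 were lowest and 4 highest in KO NPC 3. Their median difference from the other libraries was -0.17 log2 units. Fold changes that rest on KO NPC 3 are therefore given with and without it.

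None of the 33 genes was called different between KO and WT NPCs. The quasi-likelihood test called no gene at all, not even the deleted *Armc5* (adjusted p = 0.0864). The lack of calls therefore does not show that the genes were unchanged. With edgeR's quasi-likelihood test and Benjamini-Hochberg adjustment over all genes, 0 of 33 had an adjusted p under 0.05, beside 0% of all genes tested. At an unadjusted p under 0.05 the count was also 0, beside 1.61% of all genes, and the smallest unadjusted p of a member was 0.206 (*Fads2*). With edgeR's likelihood ratio test 0 members were called beside 0.0891% of all genes, with DESeq2 0 beside 0.189%, with the replicate number as a block 0 beside 0%, and with the block and the likelihood ratio test 0 beside 0.199%. The log2 fold changes ran from -0.39 (*Idi1*) to 0.40 (*Fads2*), with 12 above 0, 21 below 0 and a median of -0.02, beside a median of -0.01 over all genes tested. The 95% confidence interval lay within 1 log2 unit of 0 for 28 of the 33 genes, so that a 2-fold change in either direction was outside it. The 5 wider intervals were those of *Srebf2*, *Idi1*, *Fdps*, *Elovl6* and *Fads2*.

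No member had all 3 KO libraries above all 3 WT libraries, which 2.74% of all genes had, and none had them all below, which 3.28% had. What set the KO values apart was KO NPC 3. It held the lowest of the 6 values for 25 of the 33 genes (75.8%), where it held the lowest value for 36.7% of all genes, and the highest value for 2 members, *Fads1* and *Fads2*, where it held the highest for 34.9% of all genes. The median difference between KO NPC 3 and the mean of the other 5 libraries was -0.47 on the log2 CPM scale over the members and 0.01 over all genes. KO NPC 2 lay at the other end, with the highest value for 20 of the 33 genes (60.6%, beside 13.2% of all genes). That KO NPC 3 and these counts would be described was decided after earlier results of these data were known, and they carry no test. In libraries made from whole cultures, fewer cells of a type that expresses a gene and less of its RNA per cell cannot be told apart.

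**Figure D1:**
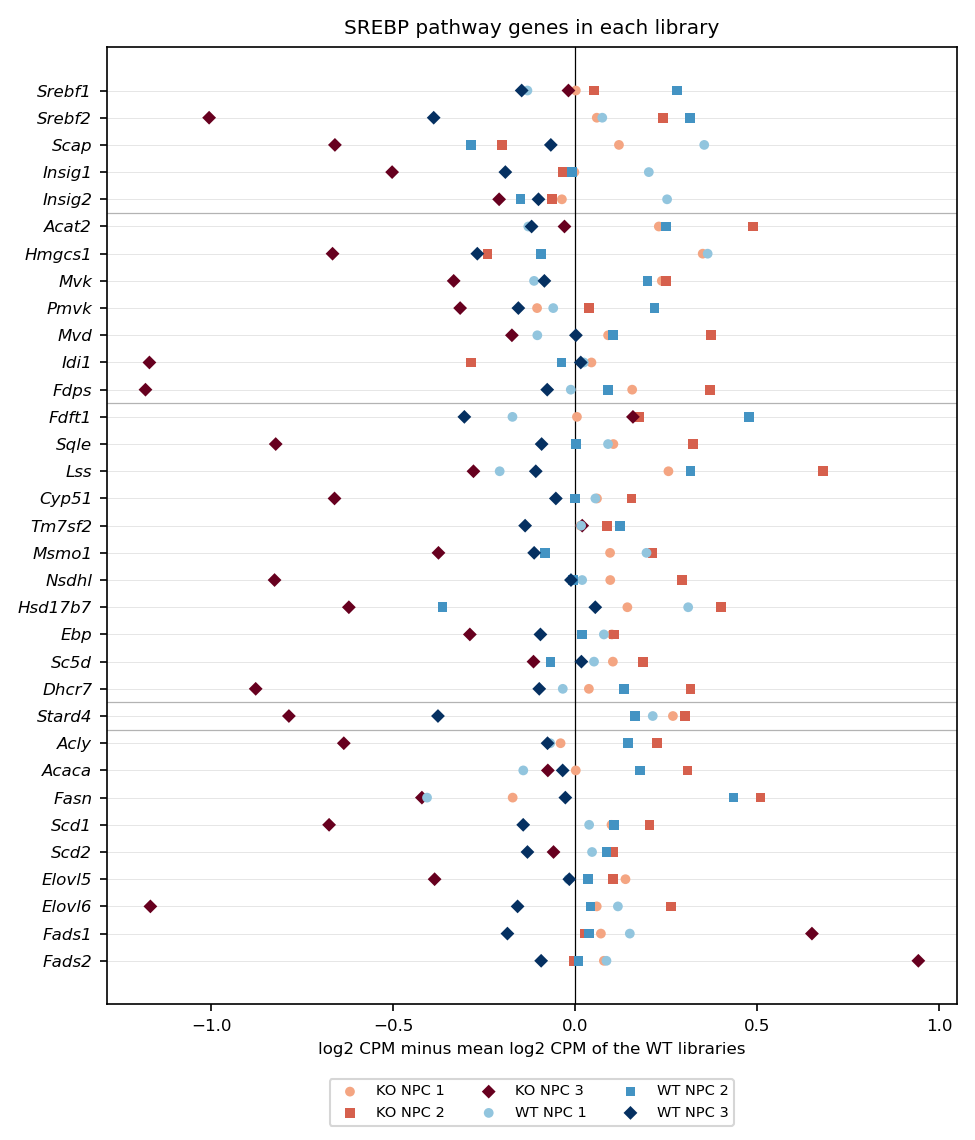
Log2 CPM of each of the 33 genes in each library, as the difference from the mean of the 3 WT libraries, in the order regulators, mevalonate steps, squalene and sterol steps, *Stard4*, and fatty acid genes. The dark red diamonds of KO NPC 3 lie farthest to the left for 25 genes and farthest to the right for *Fads1* and *Fads2*, while KO NPC 1 and KO NPC 2 lie among or above the blue WT points except for *Idi1*, where KO NPC 2 lies below them.

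The regulators come first. *Srebf2* was at 416, 471 and 199 CPM in KO NPC 1, 2 and 3 and at 420, 496 and 305 CPM in WT NPC 1, 2 and 3. KO NPC 3 was the lowest, WT NPC 3 the next, and the other 4 libraries of both genotypes mixed. The log2 fold change was -0.17 ± 0.36 (SE, adjusted p = 0.983), and 0.12 without KO NPC 3. *Srebf1* was at 196, 203 and 193 CPM in the KO libraries and at 179, 238 and 177 CPM in the WT libraries, so the KO values lay inside the WT range, KO NPC 3 with them. Its log2 fold change was -0.0022 ± 0.17 (SE, 95% confidence interval -0.41 to 0.41, adjusted p = 0.999), and 0.01 without KO NPC 3. The count at this locus also takes in the microRNA gene *Mir6922*, and it does not separate the *Srebf1* transcripts that start at different promoters.

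*Scap*, the escort protein that senses sterol, was at 223, 179 and 130 CPM in KO NPC 1, 2 and 3 and at 263, 168 and 196 CPM in WT NPC 1, 2 and 3. KO NPC 3 was again the lowest, with the other 2 KO libraries inside the WT range. The *Scap* locus is counted together with the microRNA gene *Mir6236* and also contains the coding gene *Elp6* on the same strand. Its values and its fold change may therefore not be those of *Scap* alone. *Insig1*, which retains SCAP and is itself a target of the SREBPs, was at 370, 362 and 261 CPM in the KO libraries and at 426, 368 and 324 CPM in the WT libraries. *Insig2*, its paralog, was scarce, at 12.8 to 14.5 CPM in the KO against 13.4 to 17.7 CPM in the WT libraries. The log2 fold changes of these genes were -0.24 ± 0.27 (SE) for *Scap*, -0.17 ± 0.20 (SE) for *Insig1* and -0.11 ± 0.19 (SE) for *Insig2*, each with an adjusted p = 0.983 from the quasi-likelihood test. Without KO NPC 3 they were -0.06, -0.03 and -0.06. All 5 regulators thus had a fold change below 0 with all libraries, with a median of -0.17, and 2 were above 0 and 3 below 0 without KO NPC 3, with a median of -0.03.

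The mevalonate steps lead from acetyl-CoA to farnesyl diphosphate. *Hmgcs1*, HMG-CoA synthase, was the most abundant of them, at 1965, 1305 and 972 CPM in KO NPC 1, 2 and 3 and at 1984, 1445 and 1280 CPM in WT NPC 1, 2 and 3. The libraries numbered 1 were the highest and those numbered 3 the lowest in either genotype, and the groups overlapped. Its log2 fold change was -0.15 ± 0.32 (SE, adjusted p = 0.983), and 0.06 without KO NPC 3. *Idi1*, isopentenyl-diphosphate isomerase, was at 201, 160 and 86.6 CPM in the KO libraries and at 198, 190 and 197 CPM in the WT libraries. The WT values were nearly equal and the KO values were not, since KO NPC 2 and KO NPC 3 lay below all WT libraries. *Idi1* had the lowest log2 fold change of the members, -0.39 ± 0.31 (SE, 95% confidence interval -1.13 to 0.35, adjusted p = 0.983), and -0.11 without KO NPC 3.

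*Fdps*, farnesyl diphosphate synthase, was at 227, 263 and 89.6 CPM in KO NPC 1, 2 and 3 and at 202, 216 and 193 CPM in WT NPC 1, 2 and 3. KO NPC 1 and 2 were above all WT libraries and KO NPC 3 was far below them, 1.29 log2 units under the mean of the other 5 libraries, which no other member exceeded. The log2 fold change was -0.08 ± 0.38 (SE, adjusted p = 0.986) with all libraries, and 0.26 ± 0.11 (SE, unadjusted p = 0.0579) without KO NPC 3, the smallest unadjusted p of a member in that fit. The *Fdps* locus is counted together with *Gm43738* and *Rusc1*. *Acat2*, which makes acetoacetyl-CoA in the cytosol, was at 237, 283 and 198 CPM in the KO and at 185, 240 and 186 CPM in the WT libraries, with a log2 fold change of 0.23 ± 0.20 (SE, adjusted p = 0.983) and overlapping groups. Its locus takes in *Acat3* and *Pnldc1*. *Mvk*, *Pmvk* and *Mvd*, the kinases and the decarboxylase between mevalonate and isopentenyl diphosphate, had log2 fold changes of 0.07, -0.13 and 0.11. Of the 7 genes of these steps, 3 were above 0 and 4 below 0 with all libraries, and 5 and 2 without KO NPC 3. KO NPC 3 held the lowest value of 6 of the 7, all but *Acat2*.

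The squalene and sterol steps turn farnesyl diphosphate into cholesterol. *Sqle*, squalene epoxidase, which carries out a rate-limiting oxidation of this branch, was at 319, 371 and 168 CPM in KO NPC 1, 2 and 3 and at 315, 297 and 278 CPM in WT NPC 1, 2 and 3. As with *Fdps*, KO NPC 1 and 2 were above every WT library and KO NPC 3 was below every one. Its log2 fold change was -0.05 ± 0.30 (SE, adjusted p = 0.986), and 0.21 without KO NPC 3. *Lss*, lanosterol synthase, was at 230, 308 and 158 CPM in the KO and at 167, 240 and 178 CPM in the WT libraries. It had the highest log2 fold change of these steps, 0.25 ± 0.28 (SE, adjusted p = 0.983), and 0.46 ± 0.21 (SE, unadjusted p = 0.0757) without KO NPC 3, with overlapping groups either way, since WT NPC 2 was above KO NPC 1.

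*Nsdhl*, a sterol dehydrogenase of the demethylation steps, was at 167, 191 and 88.0 CPM in KO NPC 1, 2 and 3, while WT NPC 1, 2 and 3 held 158, 155 and 155 CPM. *Dhcr7*, which makes cholesterol from 7-dehydrocholesterol, was at 268, 325 and 142 CPM in the KO and at 255, 286 and 244 CPM in the WT libraries. *Cyp51*, lanosterol demethylase, was at 306, 326 and 186 CPM in the KO and at 305, 293 and 283 CPM in the WT libraries. In each of these genes the WT libraries agreed closely and KO NPC 3 was lowest by a wide margin, and the log2 fold changes were -0.07, -0.09 and -0.11 with standard errors of 0.29, 0.31 and 0.24. Without KO NPC 3 these fold changes were 0.20, 0.18 and 0.11. The 6 others (*Fdft1*, *Tm7sf2*, *Msmo1*, *Hsd17b7*, *Ebp* and *Sc5d*) had log2 fold changes between -0.02 and 0.07. *Fdft1*, squalene synthase, and *Tm7sf2*, a sterol reductase, were the members of these steps that were not lowest in KO NPC 3: *Fdft1* was at 108 CPM and *Tm7sf2* at 82.2 CPM there, inside the WT ranges of 78.4 to 135 CPM and 73.8 to 88.3 CPM. The *Tm7sf2* locus is counted together with *Vps51*, *Gm28374* and *Zfpl1*, so its values may not be those of *Tm7sf2* alone. That of *Ebp* is counted together with *Ftsj1*. Of the 11 genes, 5 were above 0 and 6 below 0 with all libraries, and all 11 were above 0 without KO NPC 3, with a median of 0.15 and a smallest unadjusted p of 0.0757.

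*Stard4*, which carries cholesterol between membranes, was at 169, 172 and 81.1 CPM in KO NPC 1, 2 and 3 and at 162, 157 and 108 CPM in WT NPC 1, 2 and 3. Both libraries numbered 3 were low, and KO NPC 3 was the lower of them. The log2 fold change was -0.02 ± 0.33 (SE, adjusted p = 0.996), and 0.26 without KO NPC 3.

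Among the fatty acid genes, *Fasn*, fatty acid synthase, was at 1133, 1815 and 953 CPM in KO NPC 1, 2 and 3 and at 962, 1725 and 1252 CPM in WT NPC 1, 2 and 3, which is a wide range in either genotype with the libraries numbered 2 highest. Its log2 fold change was -0.01 ± 0.33 (SE, adjusted p = 0.997). *Acly*, which supplies cytosolic acetyl-CoA, was at 516, 620 and 342 CPM in the KO and at 506, 587 and 504 CPM in the WT libraries. *Acaca*, which makes malonyl-CoA, stayed within 250 to 342 CPM in all 6 libraries. *Scd2*, the main stearoyl-CoA desaturase of brain, varied little. It was at 2100, 2112 and 1884 CPM in the KO and at 2027, 2084 and 1793 CPM in the WT libraries, a log2 fold change of 0.05 ± 0.16 (SE, adjusted p = 0.983). *Scd1*, by contrast, was at 366, 393 and 214 CPM in the KO and at 351, 367 and 309 CPM in the WT libraries, with KO NPC 3 below all others. The *Scd2* locus is counted together with *Scd3* and *Scd4*, so its values may not be those of *Scd2* alone.

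*Elovl6*, which elongates C16 fatty acids, was at 304, 350 and 130 CPM in KO NPC 1, 2 and 3 and at 317, 300 and 262 CPM in WT NPC 1, 2 and 3. KO NPC 3 was 1.23 log2 units below the mean of the other libraries, a difference second among the members to that of *Fdps*. The log2 fold change was -0.16 ± 0.36 (SE, adjusted p = 0.983), and 0.16 without KO NPC 3. *Elovl5*, which elongates polyunsaturated fatty acids, was at 388, 379 and 270 CPM in the KO against 348 to 361 CPM in the WT libraries. Its locus is counted together with *Ick*.

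*Fads1* and *Fads2*, the desaturases that introduce double bonds into polyunsaturated fatty acids and are known as SREBP1 targets, went the other way in KO NPC 3. *Fads2* was at 703, 663 and 1279 CPM in KO NPC 1, 2 and 3 and at 706, 670 and 624 CPM in WT NPC 1, 2 and 3. *Fads1* was at 718, 697 and 1073 CPM in the KO and at 759, 702 and 601 CPM in the WT libraries. For both genes KO NPC 3 was above the other 5 libraries, which overlapped between the genotypes. The log2 fold changes were 0.40 ± 0.29 (SE, 95% confidence interval -0.29 to 1.10, adjusted p = 0.983) for *Fads2* and 0.27 ± 0.23 (SE, adjusted p = 0.983) for *Fads1*, the 2 highest of the members, and 0.03 and 0.04 without KO NPC 3. The genes are neighbours on chromosome 19 of GRCm38 on opposite strands, *Fads2* at 10062765 to 10101746 on the minus strand and *Fads1* at 10182888 to 10196877 on the plus strand, each counted at a locus of its own.

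**Figure D2:**
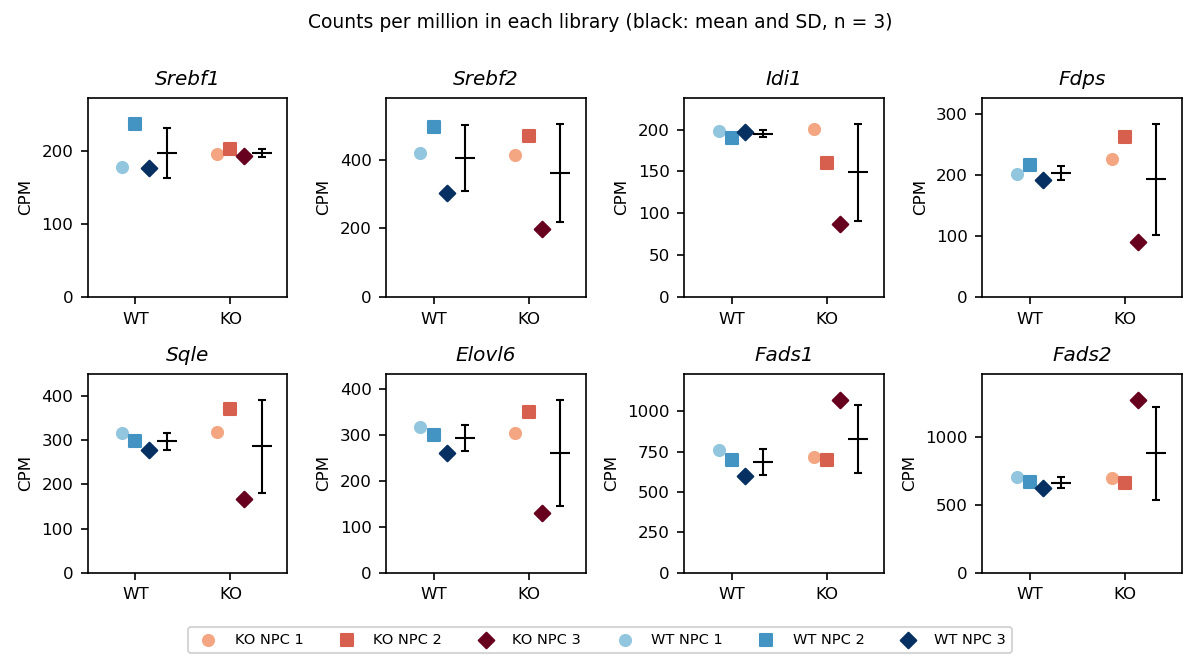
CPM in each library for 8 of the genes, with WT and KO libraries side by side, 1 symbol per library, and the mean and SD of each group (n = 3) in black. For *Srebf1* the KO libraries lie inside the WT range, with WT NPC 2 the highest. *Srebf2*, *Idi1*, *Fdps*, *Sqle* and *Elovl6* are lowest in KO NPC 3, and *Fads1* and *Fads2* are highest there.

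Without KO NPC 3 the members lay slightly above the WT level on the whole. In that fit 28 of the 33 log2 fold changes were above 0 and 5 below 0, with a median of 0.12, beside -0.01 over the same genes tested in the main fit. None passed: 0 members had an adjusted p under 0.05 by the quasi-likelihood test, beside 0% of all genes, and 0 had an unadjusted p under 0.05, beside 2.77%. KO NPC 1 and 2 were both above all 3 WT libraries for 10 of the 33 genes (*Mvk*, *Fdps*, *Sqle*, *Cyp51*, *Nsdhl*, *Ebp*, *Sc5d*, *Stard4*, *Scd2* and *Elovl5*), where 8.81% of all genes had this order, and both below for none, where 8.51% had it. The differences were small, with log2 fold changes between 0.10 and 0.26 in this fit. With both libraries numbered 3 left out, 21 members were above 0 and 12 below. Their median was 0.07, with a smallest unadjusted p of 0.132. These genes share a pathway, and their levels are not independent of each other.

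**Figure D3:**
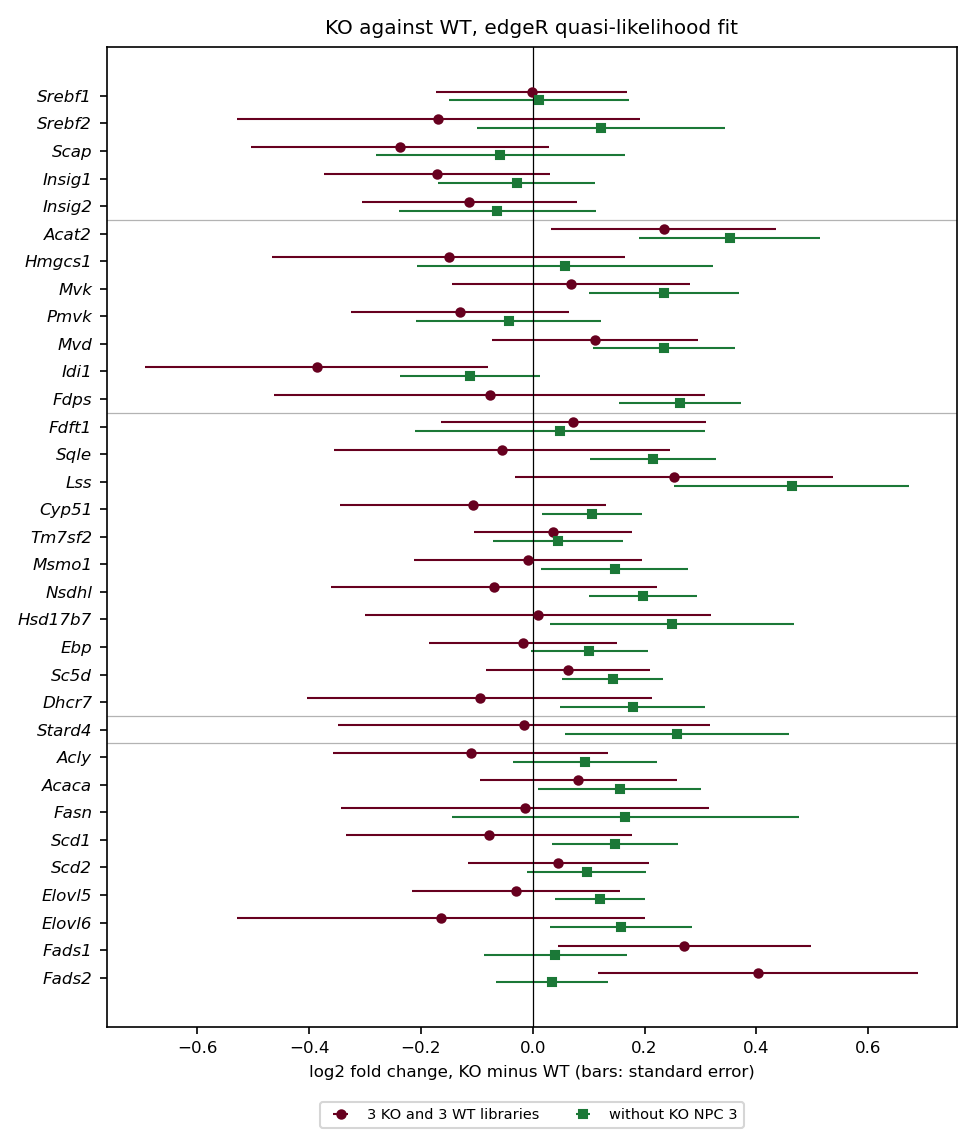
Log2 fold change, KO minus WT, of each of the 33 genes from edgeR's quasi-likelihood fit, with its standard error, for all 6 libraries (dark red circles) and without KO NPC 3 (green squares). The green squares lie above 0 for 28 genes and the dark red circles for 12.

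Compared within replicate numbers, taken here as pairs, KO was above WT for 21 of the 33 genes in pair 1, for 23 in pair 2 and for 7 in pair 3, while 50.5%, 50.6% and 48.7% of all genes were. The median log2 difference of the members was 0.03, 0.09 and -0.31 in the 3 pairs. In pair 3 the differences ran down to -1.18 for *Idi1*, -1.10 for *Fdps* and -1.01 for *Elovl6*, and up to 1.04 for *Fads2* and 0.84 for *Fads1*. In pairs 1 and 2 *Fads1* and *Fads2* were lower in the KO by less than 0.1 log2 units. *Srebf1* was higher in the KO in pairs 1 and 3, by 0.13 and 0.13, and lower in pair 2, at -0.23. *Lss* and *Acat2* had KO above WT by over 0.2 log2 units in both pairs 1 and 2, at 0.46 and 0.36 for *Lss* and at 0.36 and 0.24 for *Acat2*.

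The summed level of the 33 genes was 12575, 13147 and 10004 CPM in KO NPC 1, 2 and 3 and 12212, 12662 and 10760 CPM in WT NPC 1, 2 and 3. CPM is on library sizes scaled by edgeR's TMM factors, 1.114 for KO NPC 3. As a share of unscaled counts the sums were 1.22%, 1.29% and 1.11% in the KO and 1.17%, 1.23% and 1.08% in the WT libraries. Both libraries numbered 3 had the lowest sums, KO NPC 3 the lower in CPM and WT NPC 3 the lower as a share of counts. The sum over the 11 squalene and sterol genes separated KO NPC 3 more clearly, at 1263 CPM against 1691 to 2200 CPM in the other 5 libraries, and so did that over the 7 mevalonate genes, at 1458 CPM against 1984 to 2773 CPM. The sum over the fatty acid genes did not, at 6406 CPM in KO NPC 3 against 5962 to 7372 CPM elsewhere, with *Fads1* and *Fads2* higher there and *Acly*, *Scd1* and *Elovl6* lower.

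Per kilobase of exon, the scale on which genes can be compared, the WT NPCs had the highest levels at *Fads2*, *Hmgcs1*, *Scd2*, *Fads1*, *Fasn* and *Acly*, at 202, 160, 144, 117, 110 and 101 CPM per kb. These are fatty acid genes except *Hmgcs1*. *Srebf2* was at 56.7 CPM per kb and *Srebf1* at 31.7, with WT ranges that do not overlap per kb. Of the negative regulators, *Insig1* was at 51.2 CPM per kb and *Insig2* at 4.31, the lowest of the members beside *Ebp* at 4.35 and *Pmvk* at 4.48, none of which differ beyond their spread. The exon length used for this is that of the deposited locus, and 9 of the 33 loci reach over 10000 bases beyond the gene as annotated by GENCODE (*Scap*, *Acat2*, *Hmgcs1*, *Fdps*, *Tm7sf2*, *Ebp*, *Fasn*, *Scd2* and *Elovl5*). The order depends on that length. With the annotated exon length in its place *Scd2* would be at 360, *Hmgcs1* at 342, *Insig1* at 120.5, *Elovl5* at 100.1 (20.5 by the locus), *Acat2* at 79.9 (20.1 by the locus) and *Ebp* at 22.2 CPM per kb, if all of their counts came from the named gene. *Insig1*, whose locus ends where the annotated gene does, would then lie above *Srebf2*, *Acly* and *Fasn*, the last at 119.9 CPM per kb. Of the 9 loci, 6 contain coding genes of the same strand that the locus name does not hold, such as *Rbm3* inside the *Ebp* locus and *Rfng* inside the *Fasn* locus. The rest contain none such but are named together with other genes: *Fdps* with *Rusc1*, *Tm7sf2* with *Vps51* and *Zfpl1*, and *Scd2* with *Scd3* and *Scd4*. Levels at all 9 loci are therefore uncertain. At the 25 loci that name 1 gene, KO NPC 3 held the lowest value of 21 members (84%).

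**Figure D4:**
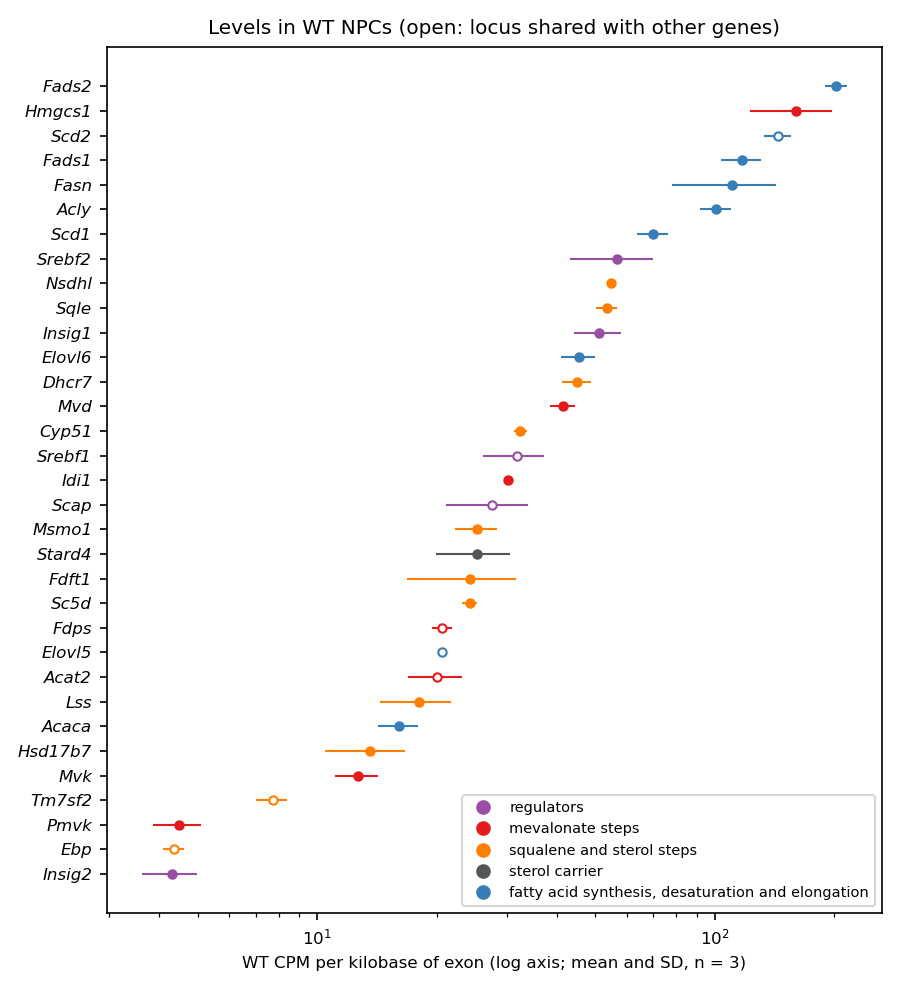
Level of each of the 33 genes in WT NPCs, as CPM per kilobase of exon of the deposited locus on a log axis, with mean and SD (n = 3), coloured by role. Open circles mark the 8 loci whose name holds other genes too. By this length *Fads2*, *Hmgcs1*, *Scd2*, *Fads1*, *Fasn* and *Acly* lie at the top and *Insig2*, *Ebp* and *Pmvk* at the bottom, with the fatty acid genes *Acaca* and *Elovl5* among the lower members at 16.1 and 20.5 CPM per kb.

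SREBPs bind promoters near the start of transcription, beside CCAAT boxes (bound by NF-Y) and GC boxes (bound by SP1). RefSeq promoters of GRCm38.p6, from 250 bases before to 50 bases after the start, were at hand for 26 of the 33 genes. They were searched on both strands for a sterol regulatory element form, TCACNCCAC, for CCAAT and for GGGCGG. The CCAAT box stood in a promoter of 21 of the 26 genes (80.8%), where 41.1% of all genes with such a promoter had it, and GGGCGG also in 21 of 26 (80.8%), where 38.2% had it. TCACNCCAC stood in the promoter of 1 gene, *Hmgcs1* (3.85% of the 26, beside 1.44% of all genes), and its form with an A before TCACCCCAC in none, beside 0.0999% of all genes. Matches of different motifs did not overlap. Such matches describe letters in a window, and no match says only that these letters are not there.

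The promoters of 6 members are printed to show these letters beside the values, each as the 150 bases before the RefSeq start, 5′ to 3′ on the strand of the gene, with matches to the motifs on either strand in capitals (CCAAT reads ATTGG and GGGCGG reads CCGCCC where they lie on the opposite strand). *Hmgcs1* is shown because it holds the sterol regulatory element form, *Elovl6*, *Idi1*, *Srebf2* and *Nsdhl* because they were the lowest in KO NPC 3 relative to the other libraries among members with exactly 1 listed promoter (*Dhcr7*, with 3, was lower than *Nsdhl*), and *Fads2* because it was highest there. They lie on GRCm38.p6 at chr13:119690201-119690350 (plus strand), chr3:129532236-129532385 (plus), chr13:8885456-8885605 (plus), chr15:82147119-82147268 (plus), chrX:72918371-72918520 (plus) and chr19:10101504-10101653 (minus) in that order.
Hmgcs1: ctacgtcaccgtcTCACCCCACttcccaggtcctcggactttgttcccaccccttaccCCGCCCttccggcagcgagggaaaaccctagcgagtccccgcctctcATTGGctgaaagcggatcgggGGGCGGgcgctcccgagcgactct
Elovl6: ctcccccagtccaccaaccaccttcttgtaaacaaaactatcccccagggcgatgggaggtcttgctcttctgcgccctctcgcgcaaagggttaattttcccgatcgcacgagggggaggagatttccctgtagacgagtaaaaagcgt
Idi1: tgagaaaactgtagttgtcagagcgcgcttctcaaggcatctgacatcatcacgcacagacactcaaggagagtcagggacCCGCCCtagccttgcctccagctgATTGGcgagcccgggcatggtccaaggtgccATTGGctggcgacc
Srebf2: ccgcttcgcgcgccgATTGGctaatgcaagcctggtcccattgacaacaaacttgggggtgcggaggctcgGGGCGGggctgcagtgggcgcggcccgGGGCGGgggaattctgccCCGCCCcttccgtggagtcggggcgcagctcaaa
Nsdhl: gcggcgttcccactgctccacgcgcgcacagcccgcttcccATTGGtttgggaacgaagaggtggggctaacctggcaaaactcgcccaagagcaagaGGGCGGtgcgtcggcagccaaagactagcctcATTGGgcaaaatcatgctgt
Fads2: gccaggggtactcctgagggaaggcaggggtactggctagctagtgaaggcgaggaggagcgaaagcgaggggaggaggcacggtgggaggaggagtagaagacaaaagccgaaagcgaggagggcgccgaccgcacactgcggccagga

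In these stretches *Hmgcs1* held the sterol regulatory element form, 1 CCAAT and 2 GGGCGG matches, *Idi1* and *Nsdhl* each 2 CCAAT and 1 GGGCGG, *Srebf2* 1 CCAAT and 3 GGGCGG, and *Elovl6* and *Fads2* none of them. Of the members with a listed promoter, 21 were lowest in KO NPC 3, and 19 of these had a CCAAT in the whole window, all but *Elovl6* and *Scap*. Of the 5 others, *Srebf1* and *Tm7sf2* had one, and *Acaca*, *Acat2* and *Fads2* had none. GGGCGG stood in the window of 17 of the 21 and of 4 of the 5. These counts are a description with no test.

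Genes around the pathway, in 7 lists, gave no gene past an adjusted p of 0.05 by the quasi-likelihood test, the likelihood ratio test or DESeq2. Of 10 genes for SREBP cleavage and turnover, 4 were above 0 and 6 below 0, with a median log2 fold change of -0.10. The proteases *Mbtps1* and *Mbtps2*, which release the SREBPs in the Golgi, were at -0.09 ± 0.16 (SE) and -0.28 ± 0.28 (SE), and the ubiquitin ligase gene *Rnf139*, counted together with *Ndufb9* and *Gm49356*, at -0.11. *Mbtps2*, counted together with *Yy2*, was at 91.9, 84.7 and 44.8 CPM in KO NPC 1, 2 and 3 against 84.5 to 96.1 CPM in the WT libraries, so KO NPC 3 was low here too.

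The 10 genes of the isoprenoid branches, which make prenyl groups, ubiquinone and dolichol from mevalonate products, had a median of -0.06, with 4 above 0 and 6 below. *Ggps1*, *Pdss1*, *Pdss2* and *Dhdds* were at 0.04, -0.13, -0.08 and 0.14. *Icmt*, which methylates prenylated proteins, had an unadjusted p of 0.0341 (adjusted p = 0.983 from the quasi-likelihood test): it was at 26.8, 18.4 and 19.2 CPM in the KO and at 34.6, 27.8 and 33.1 CPM in the WT libraries, with every KO library below every WT library and a log2 fold change of -0.57 ± 0.21 (SE). Every KO library was below every WT library for 3.28% of all genes. Among the lists around the pathway, *Erlin2* and *Gramd1a*, the latter at a locus shared with other genes, had this order too. *Icmt*, *Erlin2* and *Gramd1a* were named after their values were seen.

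Genes for sterol uptake and movement had 3 of 11 above 0 and 8 below, with a median of -0.09. *Npc1* and *Npc2*, which let cholesterol out of lysosomes, were at -0.11 and 0.05, and the lipoprotein receptor genes *Vldlr* and *Lrp8* at -0.14 and 0.05. Of this list *Scarb1* and *Tmem97*, named after their values were seen, were low in KO NPC 3, at 30.3 and 16.6 CPM, where the other libraries held between 102 and 156 CPM and between 78.2 and 102 CPM. *Gramd1b*, also named after its value was seen, was high there, at 60.1 CPM against 7.06 to 12.5 CPM.

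The list for liver X receptors (LXRs), efflux and esterification holds, among others, genes that cells turn on when sterols are plentiful. Of its 11 genes 10 were tested, 8 above 0 and 2 below, with a median of 0.42 on the log2 scale, which was -0.15 without KO NPC 3. *Abca1*, which exports cholesterol, was at 57.6, 73.9 and 751 CPM in KO NPC 1, 2 and 3 and at 88.8, 150 and 152 CPM in WT NPC 1, 2 and 3. KO NPC 1 and 2 were below every WT library and KO NPC 3 above every one. This made a log2 fold change of 1.18 ± 1.00 (SE, adjusted p = 0.983) with all libraries and -0.98 without KO NPC 3. *Abcg1*, another exporter, was at 9.48 CPM in KO NPC 3 against 2.07 to 4.09 CPM elsewhere. The LXR genes *Nr1h2* and *Nr1h3* were at 0.02 and 0.41, and *Nr1h3* was under 1 CPM in all libraries. *Cyp46a1*, which oxidizes cholesterol in neurons, and *Apoe*, which carries it and is counted together with *Tomm40*, were named after their values were seen: *Cyp46a1* was at 42.3 CPM in KO NPC 3 against 4.67 to 5.91 CPM elsewhere, and *Apoe* was at 380 CPM in KO NPC 3 and at 282 CPM in WT NPC 3, against 99.5 to 141 CPM in the remaining 4.

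**Figure D5:**
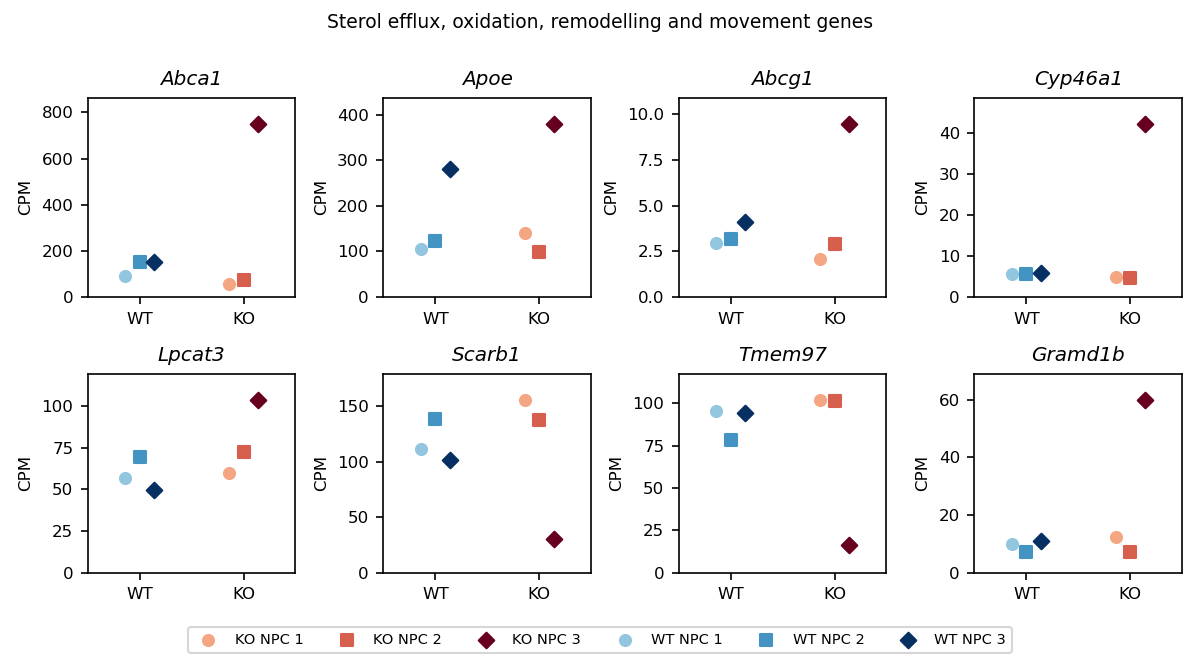
CPM in each library for 8 genes of sterol efflux, oxidation, membrane remodelling and movement, chosen after their values were seen, with WT and KO libraries side by side and 1 symbol per library. KO NPC 3 is highest for *Abca1*, *Apoe*, *Abcg1*, *Cyp46a1*, *Lpcat3* and *Gramd1b* and lowest for *Scarb1* and *Tmem97*.

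The other 3 lists had medians near 0, with single genes farther from it. Of 16 genes for precursor supply and other lipogenic targets, 10 were above 0 and 6 below, with a median of 0.07. *Acss2*, *Slc25a1*, *Me1* and *Aacs*, which supply acetyl units, citrate, NADPH and acetoacetyl-CoA, were at -0.03, 0.01, -0.33 and 0.10. *Elovl7*, an elongase named after its value was seen, had the highest log2 fold change of this list, 1.35 ± 0.94 (SE, adjusted p = 0.983 from the quasi-likelihood test), and -0.07 without KO NPC 3, where it was at 79.0 CPM against 4.90 to 19.6 CPM elsewhere. Of 10 fatty acid oxidation genes, 1 was above 0 and 9 were below, both with and without KO NPC 3, with medians of -0.12 and -0.11. *Cpt1a*, *Cpt2*, *Acadl* and *Acadm* were at -0.12, -0.22, -0.12 and -0.02. *Ppara*, a receptor that turns on fatty acid oxidation genes, also named after its value was seen, had the lowest of them, -0.98 ± 0.41 (SE, unadjusted p = 0.0523, adjusted p = 0.983 from the quasi-likelihood test). It was at 3.51, 2.21 and 3.41 CPM in the KO and at 8.80, 3.47 and 5.81 CPM in the WT libraries, and the groups overlapped. Of 7 genes for factors that act with SREBPs on promoters, 6 were above 0 and 1 below, with a median of 0.11. The NF-Y subunit genes *Nfya*, *Nfyb* and *Nfyc* were at 0.05, 0.30 and -0.09. *Sp1* was at 0.76 ± 0.34 (SE, unadjusted p = 0.0635, adjusted p = 0.983 from the quasi-likelihood test), with 278, 118 and 146 CPM in the KO and 112, 115 and 92.5 CPM in the WT libraries. Every KO library was above every WT library, an order that 2.74% of all genes had, and KO NPC 1 lay farthest above.

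Markers of cell types moved with the low values in KO NPC 3, and their part in them was not tested. Of 12 oligodendrocyte lineage genes 11 were tested, and their median difference between KO NPC 3 and the other 5 libraries was 2.19 log2 units. *Mbp*, which encodes myelin basic protein, was at 518 CPM there and between 8.42 and 84.5 CPM elsewhere, while *Mog*, a marker of mature myelin, was at 0.83 CPM in KO NPC 3 (1.17 CPM in WT NPC 3) and at 0 in KO NPC 1 and WT NPC 1. Of the 11, 7 were highest and 3 lowest in KO NPC 3. The lowest were *Olig1* and *Olig2*, transcription factors of the lineage, at 655 and 607 CPM against 1176 to 1352 CPM and 940 to 1097 CPM elsewhere, and *Cspg4*, a marker of precursors, at 56.8 CPM against 80.5 to 237.5 CPM. The summed level of the 12 genes was 4587 CPM in KO NPC 3 against 2639 to 3855 CPM elsewhere. Of the 8 astrocyte genes all were tested, with a median difference of 1.36, 5 highest and 1 lowest in KO NPC 3. *Gfap* was at 276 CPM and *Aqp4* at 1041 CPM in KO NPC 3, with 47.9 and 171 CPM in WT NPC 3 and up to 1.54 and 92.6 CPM in the other 4. *Slc1a3*, a glutamate transporter, was the lowest, at 778 CPM against 926 to 1117 CPM, and *Aldh1l1* and *Slc1a2*, at 134.5 and 271 CPM, lay inside the range of the other libraries. These genes with *Olig1*, *Olig2* and *Cspg4* were named after their values were seen. The 9 neuron genes, such as *Tubb3*, *Dcx* and *Map2*, summed to 1379 CPM in KO NPC 3 and to between 803 and 1475 CPM elsewhere, with a median difference of 1.68. Of the progenitor genes, *Nes* was at 75.9 CPM in KO NPC 3 against 356 to 484 CPM elsewhere, while the locus of *Sox2*, which is counted together with its overlapping transcript *Sox2ot* and others, was at 812 CPM there against 536 to 626 CPM elsewhere, and *Pax6* was at 53.4 CPM and between 39.0 and 48.6 CPM.

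Cell types from outside the neural lineage gave little signal. Microglia and macrophage genes, 1 of 6 tested, summed to at most 1.38 CPM in any library, and *Aif1* was at 0 in 5 of the 6 libraries. Fibroblast and meninges genes, 2 of 5 tested, summed to at most 7.46 CPM, in WT NPC 3. Endothelial and mural genes, 4 of 6 tested, summed to 77.1 CPM in KO NPC 3 and to at most 7.41 CPM elsewhere. Of the sum in KO NPC 3 *Pdgfrb* made up 58.5 CPM, with *Pecam1* at 0.56 CPM and *Cdh5* at 0 there. *Kdr* was at 4.18, 4.23 and 14.8 CPM in the KO and at 3.03, 2.92 and 2.19 CPM in the WT libraries. Its unadjusted p was 0.0355 (adjusted p = 0.983 from the quasi-likelihood test). Every KO library was above every WT library, an order that 2.74% of all genes had.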

How the data were processed

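RNA was measured in 6 NPC libraries (3 KO, 3 WT) after rRNA depletion, with a strand-specific kit and paired-end sequencing. Per the submitters' processing notes, Trimmomatic, STAR, Picard, StringTie and edgeR were used on GRCm38. Their versions, and how reads were assigned to loci and whether by strand, are not given in the sources used here. The authors deposited whole-number counts per locus of a merged StringTie assembly, neither scaled nor filtered, and log2 CPM and log2 *Rn7sk*-scaled values, which are not used here.

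Of 59699 loci, the 53103 with a gene name were added up by reference gene, which gave 53060. Loci naming no gene held 1.31% to 4.89% of a library's counts. edgeR 4.0.16 in R 4.3.3 (filterByExpr with minimum count 10 and minimum total 15, TMM, quasi-likelihood test without block, Benjamini-Hochberg over all 19073 genes, threshold 0.05) was the test, which was also tested on simulated counts. Standard errors are the fold change over the root of F. CPM is on TMM-scaled library sizes, and log2 CPM has a prior count of 2. DESeq2 1.42.0 was an alternative.

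All 33 members were named, with full statistics for the regulators, the 10 largest fold changes and those named for their pattern across libraries. Of other lists the first 4 genes tested (3 for markers) and any called were named. Members and lists were chosen with earlier results of these data known. Same-numbered KO and WT libraries deviated together from their group means (r = 0.41, 0.17 and 0.19 for numbers 1, 2 and 3, at most 0.06 for other pairs). Such deviations cancel within a group, so these values alone do not establish a pairing. The study describes 3 pairs of biological replicates, and the numbers were taken as the pairs.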

Additional observations from a re-analysis of the deposited data

How the results depend on the processing

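No member was called under any alternative, at an adjusted p under 0.05, and at an unadjusted p under 0.05 in the main setting the count was also 0. Over all genes, of which the main setting called 0, the count was 5 without a filter (1 higher, 4 lower), 4 on the *Rn7sk* scale (1 higher, 3 lower), 17 with the likelihood ratio test, 35 with DESeq2, 38 with the replicate block and the likelihood ratio test, and 308 at an unadjusted p under 0.05. Leaving out libraries gave 0 to 90 calls, of which 68 came from the likelihood ratio test and 90 from DESeq2, both without KO NPC 3 and both added after seeing the data. The replicate block changed no call. The *Rn7sk* scale moved the median of all genes to -0.26, and its values here are relative to that. The median log2 fold change of the members lay between -0.12 (without KO NPC 1) and 0.12 (without KO NPC 3) with libraries left out and within the spread of the WT libraries under every other alternative. With total counts only, 2 members, both higher in KO, had groups that did not overlap. The share of all genes on that scale is not given here, so nothing is read from that count.

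Fold changes near 0 changed sign, none of them called, and the cause was not tested. With total counts in place of TMM the values were 0.060 for *Srebf1*, 0.042 for *Msmo1*, 0.035 for *Ebp*, 0.024 for *Stard4*, 0.030 for *Fasn*, 0.019 for *Elovl5*. Without a filter the values were -0.010 for *Hsd17b7*. Keeping genes at a CPM of 1 or more in 3 or more libraries the values were 0.039 for *Srebf1*, 0.021 for *Msmo1*, 0.015 for *Ebp*, 0.0032 for *Stard4*, 0.013 for *Fasn*, 0.00050 for *Elovl5*. On the *Rn7sk* scale relative to the median of all genes the values were 0.036 for *Srebf1*, 0.0012 for *Msmo1*, -0.028 for *Hsd17b7*, 0.058 for *Stard4*. With DESeq2 the values were 0.018 for *Srebf1*, 0.0090 for *Msmo1*, 0.00071 for *Ebp*, 0.0020 for *Fasn*. With the replicate block the values were 0.012 for *Srebf1*, -0.029 for *Hsd17b7*. With the block and the likelihood ratio test the values were 0.012 for *Srebf1*, -0.029 for *Hsd17b7*. Leaving out 1 library or both numbered 3 gave a range of -0.081 to 0.18 for *Srebf1*, -0.37 to 0.12 for *Srebf2*, -0.17 to 0.034 for *Insig2*, -0.47 to 0.063 for *Hmgcs1*, -0.021 to 0.24 for *Mvk*, -0.21 to 0.017 for *Pmvk*, -0.0085 to 0.23 for *Mvd*, -0.33 to 0.26 for *Fdps*, -0.10 to 0.38 for *Fdft1*, -0.25 to 0.21 for *Sqle*, -0.22 to 0.11 for *Cyp51*, -0.034 to 0.13 for *Tm7sf2*, -0.10 to 0.15 for *Msmo1*. For the others that changed sign it was -0.26 to 0.20 for *Nsdhl*, -0.18 to 0.26 for *Hsd17b7*, -0.080 to 0.10 for *Ebp*, -0.32 to 0.18 for *Dhcr7*, -0.18 to 0.26 for *Stard4*, -0.28 to 0.093 for *Acly*, -0.014 to 0.21 for *Acaca*, -0.30 to 0.26 for *Fasn*, -0.21 to 0.15 for *Scd1*, -0.021 to 0.12 for *Scd2*, -0.12 to 0.12 for *Elovl5*, -0.40 to 0.16 for *Elovl6*, -0.052 to 0.41 for *Fads1*, -0.017 to 0.59 for *Fads2*.

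With 3 cultures a genotype and KO NPC 3 apart from the rest, the 95% confidence intervals of *Srebf2*, *Idi1*, *Fdps*, *Elovl6* and *Fads2* reached beyond 1 log2 unit, so changes of that size are not excluded there. The lowest member in CPM, *Insig2*, was at over 12 CPM in every library, and how depth and the spread between cultures share in the errors was not tested.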
